A study of Mus musculus with 24 samples.

Results

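CD8 T cells from spleens of Atm-deficient mice that carried a transplanted B-cell lymphoma were compared, gene by gene, with CD8 T cells of Atm-deficient mice without a transplant. The comparison uses 6 of the study's 24 libraries, chosen by their labels alone: the 3 named CD8-AtmKO-lymphoma and the 3 named CD8-AtmKO-control, called KO lymphoma 1 to 3 and KO control 1 to 3 here. Every mouse behind them was C57BL/6N with genotype Atm-/-, so the loss of Atm was common to both groups. The labelled difference in treatment was transplantation of B-cell lymphoma against none. The mouse identifiers in the labels differed as well. The share of mice whose identifier begins with B was 0, 1 and 1 in KO control 1 to 3, and 0.5, 0 and 0 in KO lymphoma 1 to 3. Each library was a pool of 2 mice, and the 6 libraries hold 12 mice that appear in no other CD8 library. The Atm allele, the age and sex of the mice, the lymphoma line and the time from transplant to collection are not given in the sources used here. T cells were enriched from spleen cells with a kit, and RNA was read with a 3′ tag method that counts fragments next to the poly(A) tail. Where the response is set beside that of other cells, CD8 libraries of Atmwt/wt mice (WT, 3 lymphoma libraries of 1 mouse each and 3 control pools) and CD4 libraries from the same KO mice were used.

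ATM is a kinase that is activated by broken DNA and signals to the p53 pathway and to cell cycle checkpoints, and T cells need it when they join the segments of their antigen receptor genes. CD8 T cells are the cytotoxic arm of the T cell response: they recognise peptide on MHC class I through the T cell receptor and its CD3 chains, and kill with perforin and granzymes. Type I interferons act on nearly all cells through a receptor that activates a complex of transcription factors, and this complex binds a short element in the promoters of interferon-stimulated genes, most of which limit viruses.

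The 6 libraries held 6541484 to 10196062 counts and 16001 to 17707 genes with a count. Levels are given in CPM (a gene's counts divided by the scaled library total, times 1000000), differences as log2 fold changes, lymphoma minus control, with their standard error, and "rose" or "fell" marks genes that passed edgeR's quasi-likelihood test at a Benjamini-Hochberg adjusted p of 0.05, over 12650 genes. Atm (chromosome 9, 53439149 to 53536740, GRCm38, GENCODE M21, as for all gene positions here) stood at 89.6, 105.3 and 110.3 CPM in the KO controls and at 84.4, 94.5 and 40.2 CPM in KO lymphoma 1, 2 and 3, against 185 to 205 CPM in the WT controls and 158 to 191 CPM with lymphoma. All 6 KO values were below all 6 WT values, but none was at 0, and a 3′ tag outside the disrupted part of the gene would not report on the disruption. Cd8a was at 420 to 463 CPM in the controls and at 143, 335 and 281 CPM in KO lymphoma 1 to 3, while Cd4 lay between 1.60 and 7.99 CPM in all 6 libraries.

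RNA of other blood cells was not even across the lymphoma libraries, and KO lymphoma 1 stood apart. The 20 erythroid genes tested summed to 66964 CPM in KO lymphoma 1, 8173 CPM in KO lymphoma 2 and 1712 CPM in KO lymphoma 3, where the controls had 1341 to 3545 CPM. Of the 18 neutrophil genes the sum was 3947, 611 and 496 CPM against 120 to 172 CPM. The 30 B cell genes summed to 3861, 937 and 494 CPM against 703 to 909 CPM, so that this list was above the controls in KO lymphoma 1 and below them in KO lymphoma 3. The 31 monocyte and macrophage genes were higher in all 3 lymphoma libraries (4172 to 4810 CPM against 2574 to 2972 CPM), and the 24 blood progenitor genes reached 1413 CPM in KO lymphoma 3 against 279 to 334 CPM. Single defining genes of those cells were far from 0: the beta-globin gene Hbb-bs had 487, 1204 and 751 CPM in the controls and 23872, 3065 and 372 CPM with lymphoma, and the neutrophil gene S100a8 had 20.1 to 29.95 CPM and then 1961, 240 and 50.6 CPM. The 21 pan-T genes moved the other way, from 5147 to 5688 CPM in the controls to 2192, 4266 and 3342 CPM. The part these cells play in the results that follow was not tested. Y-linked RNA was also uneven: Ddx3y, Eif2s3y and Uty together had 2.79 to 3.84 CPM in KO control 1 and 2 and KO lymphoma 1 and 2, and 68.4 and 46.5 CPM in KO control 3 and KO lymphoma 3. The fourth Y-linked gene, Kdm5d, had 66.4 CPM in KO control 1, so that the sum over all 4 was 70.2, 3.95 and 76.4 CPM in the controls and 5.33, 7.08 and 59.7 CPM with lymphoma. KO control 1 stood apart from the other controls over all genes as well: its Spearman correlation with them was 0.963 and 0.964, where theirs with each other was 0.988, and it had the most genes with a count (17707).

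**Figure D1:**
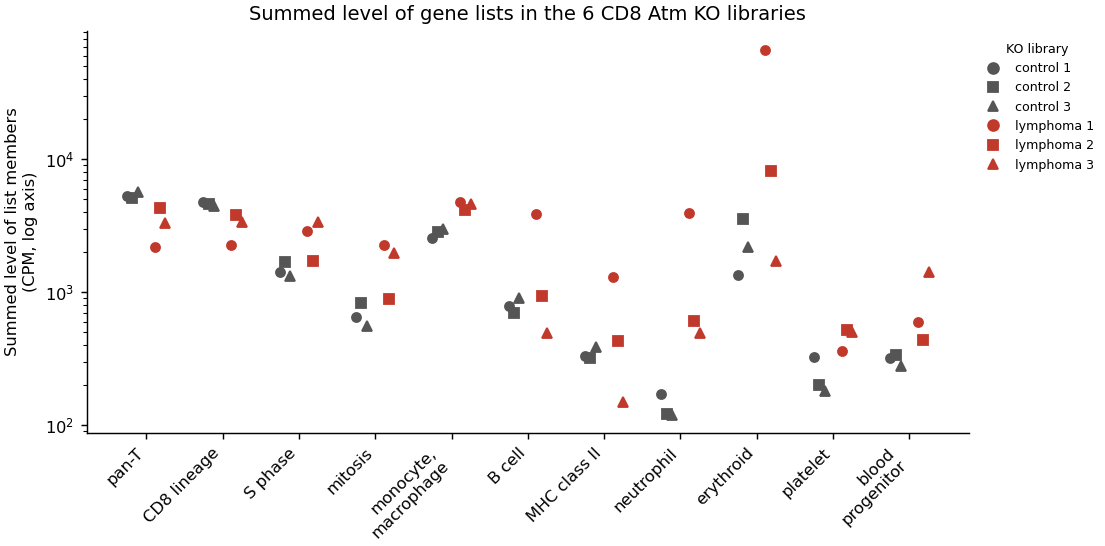
Summed level (CPM, log axis) of the members of 11 gene lists in each of the 6 CD8 Atm KO libraries, 1 point per library, controls in grey and lymphoma in red. The pan-T sum is below all controls in each lymphoma library (2192, 4266 and 3342 CPM), and the erythroid and neutrophil sums of KO lymphoma 1 (66964 and 3947 CPM) lie far above all other libraries.

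Lymphoma was accompanied by 276 called genes, 2.18% of those tested: 176 rose (1.39%) and 100 fell (0.791%). The rises were the larger changes, with a median log2 fold change of 1.18 and 104 genes at 2-fold or more, against a median of -0.76 and 17 genes at 2-fold or more among the falls. Over all genes the median was -0.02. All 276 had no overlap between the 3 lymphoma and 3 control libraries, where 14.2% of all genes tested lay wholly above and 13.4% wholly below the controls. Of the 276, 57 are on the 39 gene lists used here, which were chosen with earlier results of these data known. The list with most rises was the type I interferon response, which is also the longest list (70 genes). Under upper-quartile scaling 204 genes were called, 109 up and 95 down, so the excess of rises was smaller there (53.4% of calls against 63.8%). With only these 6 libraries in the fit 224 were called, 214 up and 10 down (95.5%). Only 78 of those 224 were among the 276, so most of the 276 were not called without the WT libraries in the fit. Leaving these out changes the degrees of freedom, the filter, the scaling and the estimated spread together. The part of each was not tested.

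The count itself rests on which libraries are included. Without KO lymphoma 2 it was 1861 (948 up, 913 down). Without any other of the 6 libraries it was at most 50: 0 without KO control 1, 5 without KO control 2 (Ifi27l2a, Isg20, Rtp4, Patj and Anxa6), 0 without KO control 3, 9 without KO lymphoma 1 and 50 without KO lymphoma 3. At an unadjusted p under 0.05 edgeR had 2721 genes without KO control 1 and 2703 without KO control 3, against 3448 with all libraries, and DESeq2 on all libraries called 1461. All 276 genes kept their direction in each of these fits. With no overlap between the groups, leaving out a library could hardly have reversed a direction, so this adds no support to the calls. KO lymphoma 2 was the lymphoma library nearest to the controls for 122 of the 176 genes that rose and for 81 of the 100 that fell.

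**Figure D2:**
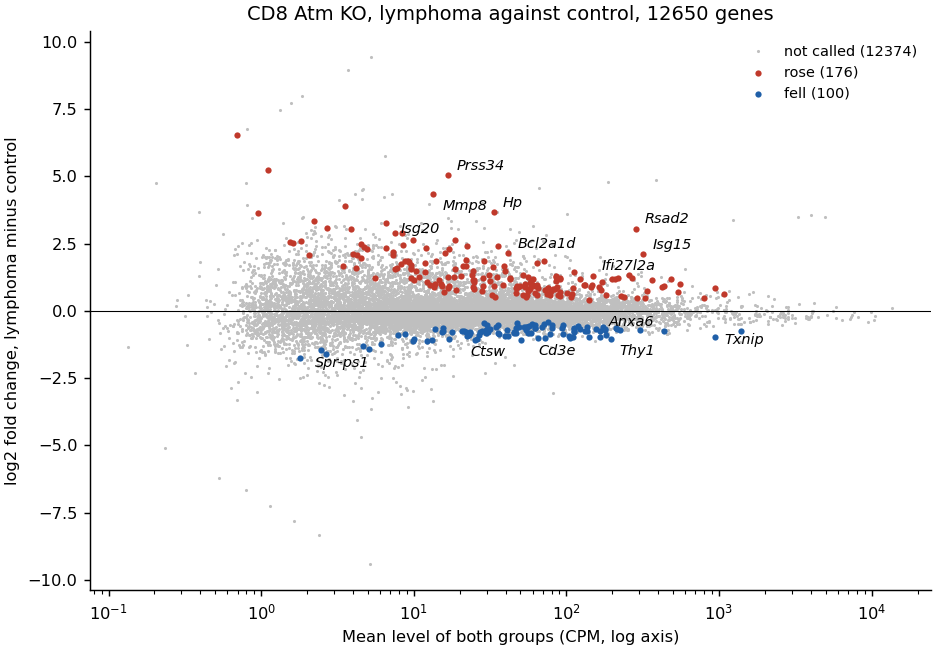
Log2 fold change (lymphoma minus control) against mean level (CPM, log axis) for the 12650 genes tested in CD8 Atm KO cells, with the 176 genes that rose in red and the 100 that fell in blue. The rises spread further from 0 than the falls, and the points beyond 7 in either direction are uncalled genes with no count in some libraries.

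Of 70 genes on the type I interferon list 24 rose and none fell, where 1.39% of all genes rose and 0.791% fell. The list was chosen with earlier results of these data known, so the contrast with all genes is no independent evidence. The median log2 fold change of the list was 0.53 (-0.02 over all genes), and 58 of the 70 values were positive (6010 of 12650 over all genes). The summed level of the list, which its most abundant members set, did not follow: it was 10411, 14089 and 9001 CPM in KO lymphoma 1 to 3 against 10435 to 10754 CPM in the controls, above them in KO lymphoma 2 alone. Rsad2 (chromosome 12, 26442746 to 26456452), whose product viperin blocks the replication of many viruses, stood at 47.8, 83.4 and 51.2 CPM in the controls and at 1014, 370 and 138 CPM in KO lymphoma 1, 2 and 3 (3.06 ± 0.59, adjusted p = 0.0414). All 3 lymphoma libraries were above all controls, yet they differed more than 7-fold among themselves. Isg15, a ubiquitin-like protein that is attached to other proteins, was at 119 to 122 CPM in the controls and at 794, 483 and 274 CPM with lymphoma (2.10 ± 0.31, adjusted p = 0.0247). Isg20, an RNA exonuclease, went from 4.30, 6.73 and 4.53 CPM to 49.7, 24.7 and 21.96 CPM (2.62 ± 0.34, adjusted p = 0.0123).

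With Isg20, the smallest p-values of this list belonged to 3 genes whose lymphoma libraries were closer to each other. Ifi27l2a, a small interferon-induced gene, had 85.3, 93.0 and 78.8 CPM in the controls and 220, 239 and 176 CPM with lymphoma (1.30 ± 0.15, adjusted p = 0.0123). Cmpk2, a mitochondrial nucleotide kinase that lies beside Rsad2 on chromosome 12, had 9.68 to 10.3 CPM and 36.8, 34.4 and 23.9 CPM (1.66 ± 0.21, adjusted p = 0.0123). Rtp4, a receptor transport protein, had 50.0 to 61.8 CPM and 127, 152 and 101 CPM (1.22 ± 0.16, adjusted p = 0.0123). Sensors and signal carriers were among the 24 as well, named here after their values were seen: Ifih1 (MDA5, a sensor of double-stranded RNA) rose by 1.26 ± 0.22, its relative Dhx58 by 1.24 ± 0.22 and the transcription factor Irf7 by 1.20 ± 0.26. Across the 24 genes KO lymphoma 3 had the lowest of the lymphoma values for 19, and KO lymphoma 2, nearest to the controls for most called genes, had the highest for 15.

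With single libraries left out, the number of the 70 interferon genes that rose was 26 without KO lymphoma 2 (where 5 fell), 20 without KO lymphoma 3, 5 without KO lymphoma 1, 3 without KO control 2, and 0 without KO control 1 or KO control 3. The list's median stayed between 0.33 and 0.74 in those fits. Of 36 genes on the interferon gamma list only Cxcl10, a chemokine that draws activated T cells, rose, where 1.39% of all genes did. Cxcl10 went from 2.46, 3.25 and 2.63 CPM to 11.6, 17.2 and 6.54 CPM (2.07 ± 0.47, adjusted p = 0.0495), and the list's median was 0.11.

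**Figure D3:**
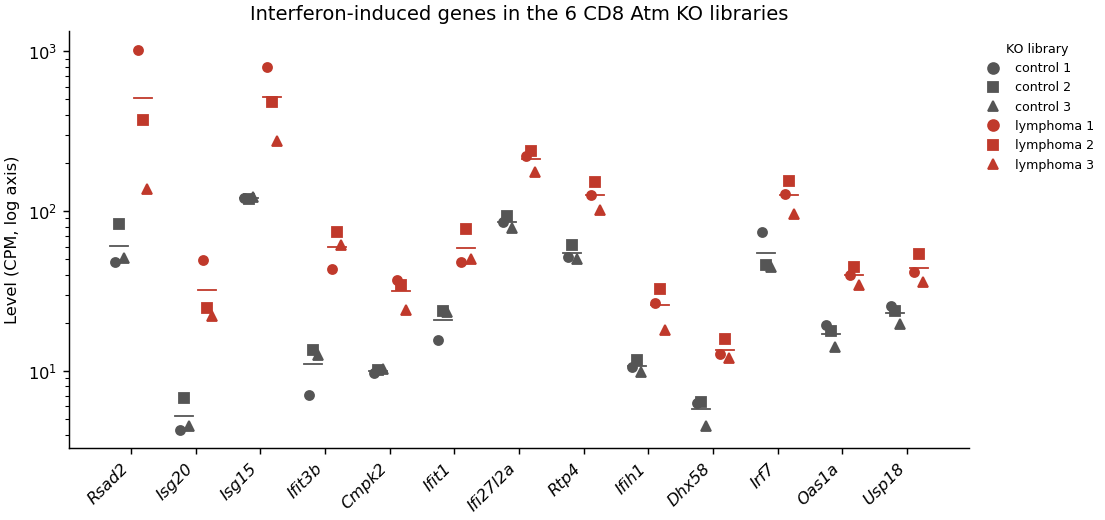
Level (CPM, log axis) of 13 interferon-induced genes in the 6 CD8 Atm KO libraries, 1 symbol per library and a line at each group mean, controls in grey and lymphoma in red. For each gene the 3 lymphoma libraries lie above the 3 controls, and KO lymphoma 3 (triangle) is often the lowest of the 3.

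The promoters of several of these genes hold the core of the element that the interferon complex binds. The core was searched as GAAA, any 2 bases and GAAA again, or as TTTC, any 2 bases and TTTC for the other strand, in the 250 bases upstream of each RefSeq transcript start (GRCm38.p6). Among type I interferon list genes with a promoter entry it was found in 8 of the 15 that rose (53.3%) and in 22 of 55 of the whole list (40.0%). It was found in 11 of 130 of all genes that rose (8.46%) and in 936 of 27025 genes with an entry (3.46%). A match is a run of letters and no measured binding. Stretches are shown for 5 genes that rose, 5′ to 3′ on the strand of the gene, with all matches in capitals. Each is placed around the match nearest to the start when matches that overlap an earlier match are skipped.
Isg15: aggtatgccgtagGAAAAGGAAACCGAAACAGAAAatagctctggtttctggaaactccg
Rsad2: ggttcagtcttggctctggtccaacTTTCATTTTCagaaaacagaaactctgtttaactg
Ifit1: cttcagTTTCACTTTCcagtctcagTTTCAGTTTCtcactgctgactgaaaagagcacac
Ifit3: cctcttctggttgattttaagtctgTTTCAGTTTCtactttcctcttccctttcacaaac
Oas1a: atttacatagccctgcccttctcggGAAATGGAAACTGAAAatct
These lie at chr4:156200850-156200909 (minus strand), chr12:26456538-26456597 (minus), chr19:34640779-34640838 (plus), chr19:34583382-34583441 (plus) and chr5:120907526-120907570 (minus). The Isg15 and Oas1a stretches hold matches that overlap. Ifit1, which binds foreign RNA, rose by 1.49 ± 0.26, Ifit3 by 1.21 ± 0.28 and Oas1a, an enzyme that makes the activator of RNase L, by 1.22 ± 0.19. Ifit3b has the same letters in its window as Ifit3 and rose by 2.42 ± 0.33, and since the 2 genes are near copies the split of counts between them is uncertain.

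Genes of the T cell receptor and of T cells in general were lower with lymphoma. Of 29 genes of the receptor complex and its proximal signalling 5 fell and none rose, with a median of -0.65. Of 21 pan-T genes 4 fell and none rose, with a median of -0.72, and the lists share 12 genes. Of all genes tested 0.791% fell. Cd3e (chromosome 9, 44998740 to 45009627), a signalling chain of the receptor complex, was at 186, 170 and 198 CPM in the controls and at 74.9, 128 and 82.7 CPM in KO lymphoma 1 to 3 (-0.95 ± 0.19, adjusted p = 0.0386). Thy1, a surface glycoprotein of mouse T cells, was at 296, 245 and 247 CPM and then 76.4, 159 and 146 CPM (-1.05 ± 0.23, adjusted p = 0.0482). Cd2, an adhesion receptor, was at 193 to 239 CPM and then 121, 160 and 129 CPM (-0.68 ± 0.14, adjusted p = 0.0448). In all 3 genes KO lymphoma 2 was nearest to the controls. In bulk RNA a smaller share of T cells and less of this RNA per T cell cannot be told apart, and the monocyte, neutrophil and blood progenitor sums given above were higher than in any control in all 3 of these libraries.

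Downstream of the receptor, Plcg1, the phospholipase that starts calcium signalling, had 162, 116 and 135 CPM and then 50.2, 93.6 and 70.7 CPM (-0.95 ± 0.20, adjusted p = 0.0482). Nfatc2, the calcium-dependent transcription factor, had 32.5 to 44.7 CPM and then 17.5, 26.2 and 20.6 CPM (-0.84 ± 0.18, adjusted p = 0.045). Cd247, the zeta chain, fell by 0.76 ± 0.18. Cd8a (-0.81 ± 0.25, adjusted p = 0.081) and Cd8b1 (-0.88 ± 0.26, adjusted p = 0.0765), the co-receptor chains, had no overlap between groups but did not pass. Without KO lymphoma 2 the counts were 21 of 29 receptor genes and 20 of 21 pan-T genes lower, and without any other of the 6 libraries both were 0.

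**Figure D4:**
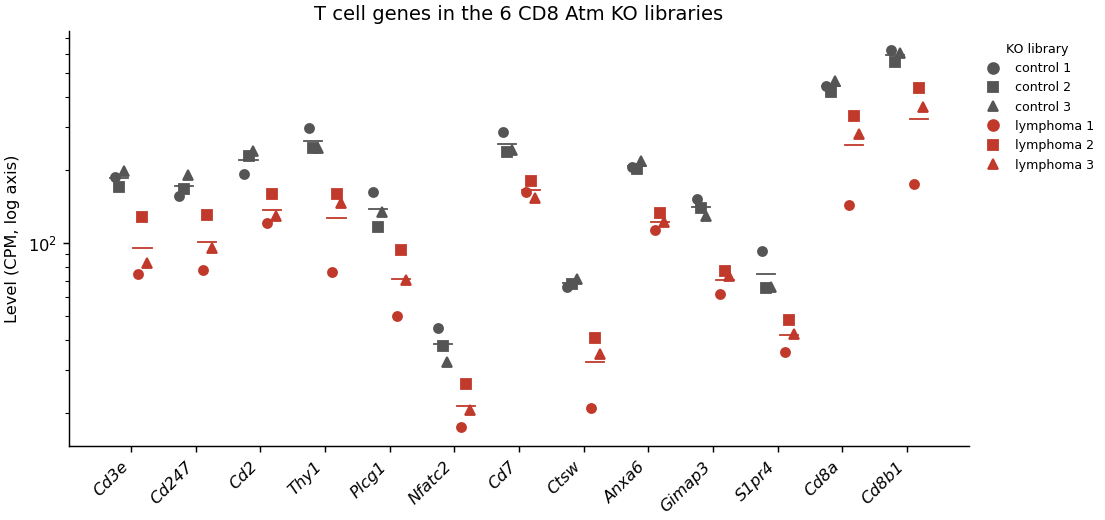
Level (CPM, log axis) of 13 T cell genes in the 6 CD8 Atm KO libraries, 1 symbol per library and a line at each group mean, controls in grey and lymphoma in red. The lymphoma libraries lie below the controls for all 13 genes, with KO lymphoma 1 (circle) lowest for most; Cd8a and Cd8b1 did not pass the test.

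Genes of the naive state were low without passing. None of 26 naive and quiescence genes was called, although all 26 had a negative log2 fold change (median -0.56), where 6010 of 12650 genes were positive. The 4 with the smallest p were Foxo1, a transcription factor of quiescence (-0.59 ± 0.15, adjusted p = 0.0537), Nsg2 (-0.70 ± 0.19, adjusted p = 0.0592), the interleukin 7 receptor gene Il7r (-0.77 ± 0.21, adjusted p = 0.0609) and Klf3 (-0.51 ± 0.14, adjusted p = 0.0638). Il7r had 408 to 489 CPM in the controls and 199, 386 and 224 CPM with lymphoma. Without KO lymphoma 2, 16 of the 26 naive genes were called lower, and without any other of the 6 libraries none was. DESeq2 on all libraries called 13 of them lower. The median of the pan-T genes, -0.72, was further below 0 than that of the naive list. Here too, a smaller share of T cells and less of this RNA per T cell cannot be told apart. Of 26 cytokine receptor genes none was called, with Ifngr2 at 0.68 ± 0.18 and Il6st at -0.74 ± 0.20 having the smallest p-values.

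Of 33 cytotoxic effector genes none rose and 1 fell, counts near the shares of all genes (1.39% and 0.791%), and the median was -0.42. The gene that fell was Ctsw, a protease of cytotoxic lymphocytes, from 65.8, 67.7 and 71.5 CPM to 21.02, 40.8 and 35.0 CPM (-1.08 ± 0.19, adjusted p = 0.0276). For genes chosen after their values were seen, perforin (Prf1) had 129 to 136 CPM and then 56.4, 115 and 83.6 CPM (-0.63 ± 0.20, adjusted p = 0.0846), and granzyme B (Gzmb) had 7.53, 18.5 and 6.56 CPM and then 8.49, 16.8 and 9.62 CPM (0.10 ± 0.59, adjusted p = 0.936). Ifng, the interferon gamma gene, had 5.53, 6.97 and 4.89 CPM and then 8.49, 18.6 and 4.32 CPM (0.85 ± 0.70, adjusted p = 0.458). The groups overlapped for Gzmb and Ifng. Of the 33 cytotoxic genes 8 lay wholly below the controls and 4 wholly above, where 13.4% and 14.2% of all genes did. Without KO lymphoma 2, 8 were called lower and none higher, and without any other of the 6 libraries at most 1 was called. DESeq2 on all libraries called 5 of 34 lower and 1 higher. Of 23 inhibitory receptor and exhaustion genes none was called (median 0.12): Cd96 was at -0.78 ± 0.21, Tox at -0.60 ± 0.19, Nr4a1 at 1.74 ± 0.51 and Cd274 at 0.92 ± 0.30, with adjusted p from 0.0592 to 0.0912.

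Several other lists of T cell genes gave 1 or 2 calls each, all falls, where 0.791% of all genes fell. Counts this small are no result about the lists. Anxa6, a calcium-dependent membrane-binding protein on the memory list, was at 206, 201 and 218 CPM and then 113, 133 and 122 CPM (-0.76 ± 0.09, adjusted p = 0.0123). It was the 1 call among 27 memory genes (median -0.01). S1pr4, a sphingosine 1-phosphate receptor, fell by 0.83 ± 0.15, Cd7, a surface protein of T and natural killer cells, by 0.62 ± 0.13 and Tnfsf8, the ligand of CD30, by 0.82 ± 0.18. They were the 1 call among 19 genes of chemokine receptors and egress (median -0.57), 1 of 2 among 15 of the CD8 lineage (Ctsw is the other, median -0.52) and the 1 call among 11 of the CD4 lineage (median -0.26). Gimap3, a GTPase of lymphocyte survival, and Txnip, an inhibitor of thioredoxin that lowers glucose uptake, are on no list and were picked after their values were seen. Gimap3 went from 152, 140 and 130 CPM to 61.6, 76.7 and 73.4 CPM (-0.99 ± 0.13, adjusted p = 0.0123), and Txnip from 1443, 1180.1 and 1122 CPM to 489, 773 and 644 CPM (-0.97 ± 0.20, adjusted p = 0.0386).

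The 12 largest falls, after the level and name rules, ran from -1.42 to -1.01 on the log2 scale. Besides Ctsw and Thy1 they were Spr-ps1 (a pseudogene whose reads may be shared with its parent gene, -1.42 ± 0.25), Carmil2 (a regulator of actin capping needed for CD28 costimulation, -1.29 ± 0.26), the kinesin gene Kifc2, the phosphatase gene Ppm1j, Pacsin1, Qrfp, Smpd5, the cytokine gene Clcf1, Baiap3 and the polarity scaffold gene Patj. Ppm1j had 19.2, 14.6 and 16.2 CPM and then 6.91, 8.19 and 7.65 CPM (-1.14 ± 0.21, adjusted p = 0.0317). Patj had 103, 82.7 and 106 CPM and then 43.8, 58.4 and 42.4 CPM (-1.01 ± 0.15, adjusted p = 0.0172). The 3 lymphoma libraries of Ppm1j lay closer together than its controls did.

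Proliferation genes were higher in KO lymphoma 1 and 3. All 40 S phase genes and all 40 mitosis genes had a positive log2 fold change, with medians of 0.91 and 1.49. Over all genes 6010 of 12650 were positive. Only 4 and 2 of the list genes rose, where 1.39% of all genes did. Members of a list can move together within a library, so the signs are not separate pieces of evidence. The summed S phase level was 1423, 1695 and 1331 CPM in the controls and 2871, 1731 and 3348 CPM in KO lymphoma 1 to 3, and the mitosis sum was 655, 829 and 553 CPM and then 2260, 894 and 1986 CPM. KO lymphoma 2 thus lay just above the highest control in both. Gins2, a subunit of the replicative helicase, went from 14.4, 14.2 and 9.31 CPM to 41.3, 24.1 and 70.7 CPM (1.84 ± 0.38, adjusted p = 0.0464), and Cdc45, its partner, from 2.51 to 5.57 CPM in the controls to 11.8, 7.08 and 16.2 CPM (1.59 ± 0.36, adjusted p = 0.0495). Lig1 (DNA ligase) rose by 1.20 ± 0.27 and Rrm1 (ribonucleotide reductase) by 0.97 ± 0.22.

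Of the mitosis list, Tpx2, a spindle assembly factor, rose by 1.86 ± 0.39 and Ube2c, an enzyme of mitotic protein turnover, by 1.84 ± 0.40. Ube2c had 32.1, 38.7 and 22.8 CPM in the controls and 160, 46.7 and 128 CPM with lymphoma. The familiar markers Mki67 (27.5, 22.9 and 12.4 CPM against 122, 33.2 and 26.4 CPM, 1.54 ± 0.59, adjusted p = 0.13) and Top2a (63.8, 122 and 67.3 CPM against 336, 110 and 286 CPM, 1.53 ± 0.42, adjusted p = 0.0672), named after their values were seen, did not pass. Without KO lymphoma 2, 28 S phase and 30 mitosis genes were called higher, and without any other of the 6 libraries none was. The erythroid and blood progenitor sums, which come from cell types that can divide, were highest in KO lymphoma 1 and KO lymphoma 3 respectively, and which cells the proliferation RNA came from was not tested.

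The damage response, which ATM normally drives, was followed with lists of 36 genes each, and both had calls near the 2.18% of all genes. Of 36 checkpoint and repair genes 1 rose and none fell (median 0.05): Fanca, of the pathway that repairs crosslinked DNA, went from 5.69, 5.81 and 4.89 CPM to 17.3, 14.2 and 13.9 CPM (1.47 ± 0.21, adjusted p = 0.0169). Of 36 p53 target genes none rose and 1 fell (median -0.05). That gene was Bbc3, which encodes the death-promoting protein PUMA and had 145, 107 and 114 CPM in the controls and 51.4, 66.5 and 82.9 CPM with lymphoma (-0.87 ± 0.18, adjusted p = 0.0434). The cell cycle inhibitor gene Cdkn1a, named after its values were seen, had 1.38, 2.55 and 2.27 CPM and then 8.09, 5.98 and 6.42 CPM and missed the threshold (1.70 ± 0.45, adjusted p = 0.0577).

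Of 27 apoptosis genes 2 rose and 1 fell, where 1.39% of all genes rose and 0.791% fell. The gene that fell was Bbc3, already counted among the p53 targets. Bcl2a1d, a survival gene of the BCL2 family, was at 15.2, 17.5 and 13.7 CPM and then 75.8, 65.2 and 63.0 CPM (2.13 ± 0.29, adjusted p = 0.0169), with the lymphoma libraries close to each other. It has near-identical copies, so its counts may include theirs. Bak1, a death effector, rose by 0.68 ± 0.16. Tiam1, an activator of the GTPase RAC1 that was named after its values were seen, was as even, with 4.06 to 5.01 CPM in the controls and 15.8, 12.9 and 15.4 CPM with lymphoma (1.70 ± 0.28, adjusted p = 0.0276).

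The calls on stress and metabolic lists were all rises, where 1.39% of all genes rose. A single call on so short a list is no result about the list. Of 27 antioxidant genes 3 rose (median 0.52): Prdx2, a peroxide-reducing enzyme that is also abundant in red cells, by 1.18 ± 0.26, Srxn1 by 0.90 ± 0.21 and Txn1 by 0.74 ± 0.17. Of 27 genes of endoplasmic reticulum stress 2 rose, the chaperone genes Hspa5 (832, 852 and 838 CPM, then 1512, 1280.4 and 1146 CPM, 0.64 ± 0.12, adjusted p = 0.0319) and Calr (0.70 ± 0.16). Hk2, which traps glucose in the cell, was the 1 gene of 23 for glycolysis that rose (1.49 ± 0.24), and Odc1, the first enzyme of polyamine synthesis, the 1 of 30 for ribosome biogenesis and Myc targets (0.90 ± 0.17). No gene of 40 for oxidative phosphorylation, 50 ribosomal proteins, 32 immediate early genes, 20 heat shock genes, 12 dissociation stress genes or 19 MHC class I genes was called. Klf4 (2.04 ± 0.49, adjusted p = 0.054) and Egr1 (0.77 ± 0.20, adjusted p = 0.0569) had the smallest p of the immediate early list.

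Most of the 12 largest rises are genes best known from other blood cells, and 3 of them (Prss34, Mmp8 and Add2) are on lists of such cells. Prss34 (chromosome 17, 25298394 to 25300165), a protease of basophils and mast cells, was at 0.922 to 1.04 CPM in the controls and 10.9, 5.75 and 81.1 CPM in KO lymphoma 1 to 3 (5.03 ± 1.12, adjusted p = 0.0497). Mmp8, the neutrophil collagenase, went from 1.69, 1.74 and 0.358 CPM to 61.0, 6.86 and 8.88 CPM (4.35 ± 0.97, adjusted p = 0.0498). The haptoglobin gene Hp went from 4.30 to 5.34 CPM in the controls to 93.4, 35.6 and 56.9 CPM (3.66 ± 0.74, adjusted p = 0.0462). These genes had their highest lymphoma value in different libraries, Prss34 in KO lymphoma 3 and Mmp8 and Hp in KO lymphoma 1.

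The chemokine gene Cxcl2 (3.91 ± 0.89), the lectin gene Clec4e (3.27 ± 0.73) and the interleukin 1 antagonist gene Il1rn (2.89 ± 0.51) are typical of myeloid cells, and Add2 (2.88 ± 0.63) and Ank1 (2.63 ± 0.57) build the red cell membrane skeleton. Dnph1, a nucleotide hydrolase (3.03 ± 0.70), the mitotic kinesin gene Kif2c (2.48 ± 0.49), Rsad2 and Isg20 complete the 12. The counts that follow stand beside 2.18% of all genes called. Few single genes of the cell type lists passed by edgeR with all libraries: 1 of 18 for neutrophils (median 3.99, and 2.11 without KO lymphoma 1), 1 of 20 erythroid (2.45, and 1.24 without it), 1 of 24 blood progenitor (1.83, and 0.91 without KO lymphoma 3), 1 of 15 platelet, 1 of 15 dendritic and none of 31 monocyte, 20 natural killer, 30 B cell, 11 MHC class II, 16 regulatory T cell, 8 gamma-delta T cell or 4 Y-linked genes. DESeq2 called 938 genes higher in all. Among them were 14 of 21 neutrophil, 16 of 22 erythroid and 9 of 27 blood progenitor genes. They also held 7 of 32 monocyte and 2 of 30 B cell genes. Without KO lymphoma 2 edgeR called 948 genes higher, with 11 neutrophil, 10 erythroid, 11 blood progenitor, 3 monocyte and 1 B cell gene among them. Without any other of the 6 libraries it called none on these lists. Treml1, a platelet gene, was higher in each lymphoma library, from 32.4, 29.8 and 26.8 CPM to 62.3, 75.8 and 85.1 CPM (1.32 ± 0.24, adjusted p = 0.0279), and the dendritic call was the interferon-induced Bst2 (0.73 ± 0.16).

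Other members had large values without passing. Of monocyte genes Cebpb was at 1.83 ± 0.42 (adjusted p = 0.0505), Cd5l at 1.44 ± 0.33 (adjusted p = 0.0515), Fcgr4 at 2.25 ± 0.60 and Lgals3 at 1.49 ± 0.43. Of B cell genes Btk was at 1.89 ± 0.59, Cd24a at 2.62 ± 0.84 and Mzb1 at 2.62 ± 0.95, and Mzb1 had 252 CPM in KO lymphoma 1 against at most 27.2 CPM in the other 5 libraries. The median of the B cell list was 1.26 with all libraries and -0.23 without KO lymphoma 1. The natural killer list had a median of -0.35, with Txk, a kinase that T cells share, at -0.78 ± 0.21.

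The same contrast in CD8 cells of WT mice had 160 genes higher (1.26%) and 20 lower (0.158%). Of the 176 genes that rose in KO cells 175 were also positive in WT cells, and 62 were called in both (62 of 176 KO and of 160 WT calls). Of the 100 that fell 95 were negative in WT cells, and 6 were called in both (of 100 and 20). The medians were 1.18 in KO and 0.95 in WT cells for the rises, and -0.76 and -0.34 for the falls. These genes were chosen by their KO values, so smaller medians in WT cells are not evidence of a weaker WT response. Of the 24 interferon genes that rose in KO cells 22 were called in WT cells as well, and the list's median was 0.53 in KO and 0.86 in WT cells.

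The difference between the responses, KO minus WT, was tested in the same fit. By edgeR no gene of 12650 passed (0%), 442 (3.49%) had an unadjusted p under 0.05, and the smallest adjusted p was 0.743. DESeq2 called 1 gene, the interferon regulator Usp18, which removes ISG15 from proteins and blocks the interferon receptor. Usp18 had 25.4, 23.6 and 19.8 CPM in the KO controls and 41.8, 53.7 and 35.9 CPM with lymphoma, a rise of 0.94 ± 0.17 (adjusted p = 0.0279) where WT cells had 2.39 ± 0.18. The difference was -1.45 ± 0.24 with an adjusted p of 0.743 by edgeR, and -1.44 ± 0.29 with an adjusted p of 0.0124 by DESeq2. A smaller rise of Usp18 in KO cells thus depends on the test used. Of the 24 interferon genes that rose in KO cells 21 had a KO minus WT difference below 0, and none of these differences passed by edgeR. The starting levels differed: the mean log2 CPM of the interferon list was 5.24 to 5.28 in the KO controls and 4.83 to 5.02 in the WT controls. With lymphoma it was 5.54 to 6.27 in KO and 5.92 to 6.22 in WT cells. The part of the starting level in these differences was not tested. Without WT control 2 edgeR called 1 gene, the predicted gene Gm11942.

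**Figure D5:**
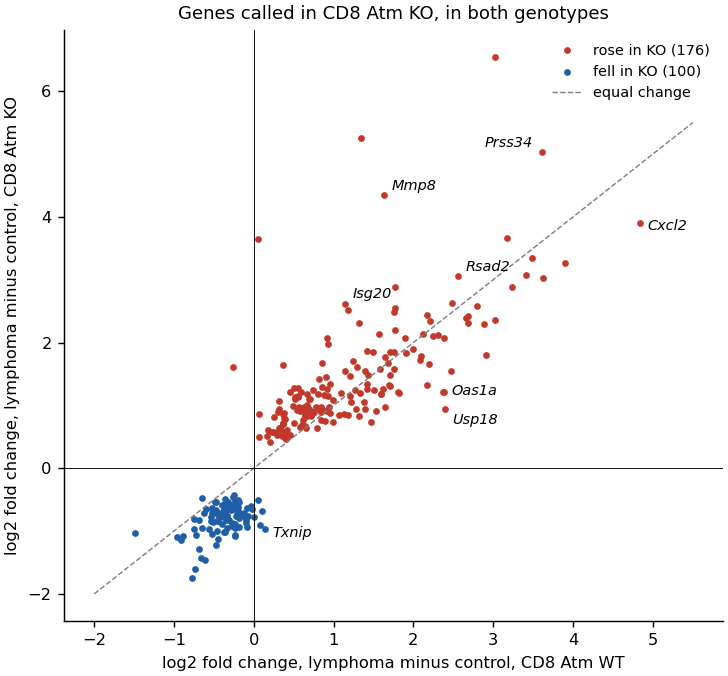
Log2 fold change (lymphoma minus control) in CD8 Atm KO cells against that in CD8 Atm WT cells for the 276 genes called in KO cells, with a dashed line of equal change. Nearly all points have the same sign in both genotypes (175 of 176 rises and 95 of 100 falls), and Usp18 and Oas1a lie well below the line.

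CD4 cells of the same KO mice were compared in a fit of all 24 libraries. The 176 genes that rose in CD8 cells had a median of 0.75 in CD4 cells, and the 100 that fell had a median of -0.51 there, but the libraries of both cell types share their mice. By edgeR no gene of 13232 passed a test of the difference between CD8 and CD4 responses (0%), 628 (4.75%) had an unadjusted p under 0.05, and the smallest adjusted p was 0.473. DESeq2 called 3 genes: Isg20, Tiam1 and the pseudogene Rps16-ps2, which had no count in most libraries. With the mouse pool as a block, which fits because each CD4 library shares its mice with a CD8 library, 25 were called, all with the higher response in CD8 cells.

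Isg20, Tiam1 and Rps16-ps2 were called in both of those fits, and the first pair is described for that reason. On the scale of the 24-library fit Tiam1 had 4.24 to 5.19 CPM in CD8 controls and 13.2 to 15.9 CPM in CD8 lymphoma libraries, against 37.2 to 44.4 CPM and 38.2 to 51.9 CPM in CD4 cells (difference 1.57 ± 0.23, adjusted p = 0.0137 with the block). CD8 levels thus stayed below those of CD4 cells in both conditions. Isg20 had 4.26 to 7.02 CPM and then 22.1 to 50.0 CPM in CD8 cells, against 14.1 to 34.8 CPM and 22.2 to 36.6 CPM in CD4 cells (difference 2.22 ± 0.40, adjusted p = 0.0457 with the block). Bcl2a1d was called with the block alone (1.51 ± 0.22, adjusted p = 0.0149). The remaining genes called with the block included B cell and antigen presentation genes, Cd79b, Ciita and H2-Aa among them. Their RNA was highest in KO lymphoma 1 within the CD8 libraries and lower in CD4 lymphoma than in CD4 control libraries.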

How the data were processed

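The authors deposited 1 table of estimated counts, with a value per mouse gene symbol and library, no normalization named and nearly all values whole. Salmon 0.11.3 and the build GRCh38 are named, per the submitters' processing notes, without a role. GRCh38 is a human build, and no position here comes from it. Libraries were made with QuantSeq FWD, per the labels' protocols. The step that separated CD4 from CD8 cells is not described in the labels.

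Of 34113 genes, 2 with a letter in place of a number were dropped. The 12 CD8 libraries were fitted together as 4 groups of 3 in edgeR 4.0.16 (TMM scaling, filterByExpr with minimum count 10, robust quasi-likelihood test, 8 residual degrees of freedom, Benjamini-Hochberg adjustment at 0.05 over 12650 genes). The difference between CD8 and CD4 cells used all 24 libraries, with 13232 genes. The analysis was tested on simulated data. Positions of sequences are RefSeq, GRCm38.p6, and those of genes GENCODE M21, GRCm38.

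The members and the 39 lists were chosen with earlier results of these data known. Genes named are the 12 largest rises and falls among those called without overlap and at 5 CPM or more in the higher group (no antigen receptor segments or predicted genes), up to 4 members of a list (called, or else of smallest p), and Atm, Cd8a, Cd8b1 and Cd4. The rule would also have named the MHC class II, Y-linked and a few other uncalled list members, whose single values are not printed. The single values of 1 interferon list member are not reported here. Genes outside the rule are marked in the text, apart from the interferon genes shown with promoters or in plots and the globin and S100a8 levels.

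Alternatives were voom with sample weights (limma 3.58.1), DESeq2 1.42.0, 2 other scalings, no filter or a stricter one (30 counts in 3 libraries), terms for Y-linked RNA or for B-numbered mice per pool, other cell type genes removed, other sets of libraries, blocks, and each library left out in turn. Libraries of the same number in KO control and KO lymphoma come from different mice, and the number was not treated as a pairing. CD4 and CD8 libraries of the same KO mice pair by label (residual correlations 0.087 to 0.525).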

Additional observations from a re-analysis of the deposited data

How the results depend on the processing

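The count of 276 genes was 416 with the stricter filter, 443 with the share of B identifiers as a term, 1461 with DESeq2 and 629 with all 24 libraries in 1 fit. With 1 library left out at a time it ran from 0 to 1861. The other settings gave 204 (upper-quartile scaling) to 386 (voom). With only the 6 libraries compared in the fit, 78 of the 276 were called again, and with the share of B identifiers as a term 188 were. All genes of the 276 that were fitted kept their direction in all of these settings. As none of the 276 overlapped between the groups, leaving out a library could hardly have reversed one. Of the 68 named genes that were called, none passed in all 6 fits with a library left out. Anxa6, Ifi27l2a and Isg20 passed in 4 of them. Each of these fits has fewer degrees of freedom than the fit with all libraries, and the cause of the range from 0 to 1861 was not tested. Replicate numbers, taken as a replicate block although they join different mice, left 25 genes (21 up, 4 down), 11 of them on the interferon list. Same-number correlations were 0.122, -0.089 and 0.056. The KO minus WT count of 0 was 1 with DESeq2 and ran from 0 to 1 with a library left out (1 without WT control 2, the predicted gene Gm11942). The CD8 minus CD4 count of 0 was 3 with DESeq2 and 25 with the mouse pool as replicate block, and no other setting made a call there. Among genes that did not pass, Gzmb ran from -0.30 (without KO lymphoma 2) to 0.72 (without KO control 2), with -0.11 without KO control 1 and -0.14 without KO control 3. At low levels few counts stand behind a value: Mmp8 had 0.358 to 1.74 CPM in the controls. Its SE of 0.97 also holds the spread between the lymphoma libraries (61.0, 6.86 and 8.88 CPM).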
